A study of Rattus norvegicus with 10 samples.

Results

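The genes described here are B2m, Tap1, Tap2, Cd74, Psmb8 and Psmb9, which serve antigen presentation and the immunoproteasome, in rat liver after a burn injury. Every probe set whose single gene symbol in the probe table of the array was one of these 6 was taken, whatever its values. This gave 11 probe sets of the 8799 on the array, for 6 of the 4737 genes that have a probe set with a single symbol. B2m, Tap2 and Psmb8 had 1 probe set each, Tap1 and Psmb9 had 2 each, and Cd74 had 4. All 11 passed the filter on low values, which 5285 probe sets passed. Another probe set names B2m together with other genes and was left out by the rule.

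Liver RNA of rats had been put on 10 arrays, 2 for each of 5 groups: sham rats, labelled 0 h and serving as control, and rats with a burn injury whose livers were taken 1, 4, 8 or 24 h later. The labels give no strain, age, sex, burn size or sham procedure, and the only sham livers are those labelled 0 h, so time after the procedure and burn cannot be told apart at any of the later times. Nor do they tell whether different animals, pooled livers or repeats of 1 extract gave a group its 2 arrays. The p-values therefore speak of the spread between these arrays alone, and that spread may be technical. In whole liver, fewer cells of a type and less RNA per cell cannot be told apart.

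Cells display fragments of their own proteins on MHC class I molecules. The proteasome cuts proteins into peptides. In the immunoproteasome, Psmb8 and Psmb9 replace subunits of the constitutive proteasome, and Psmb8 takes the place of Psmb5. Tap1 and Tap2 together form the transporter that carries the peptides into the endoplasmic reticulum, where they are loaded onto a class I heavy chain paired with B2m, the light chain of all class I molecules. Cd74, the invariant chain, belongs to the other branch: it accompanies MHC class II molecules in macrophages, dendritic cells and B cells and keeps their groove closed until they reach the compartment where peptides are loaded. In the liver the class I genes are active in hepatocytes and other cells, class II genes mainly in Kupffer cells (the macrophages of the liver), dendritic cells and B cells. Interferons raise the expression of all 6 genes in many cell types, in part through interferon regulatory factors (IRFs), which bind repeats of the bases GAAA.

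B2m, Tap1, Tap2 and Psmb8 carried such a repeat beside their transcription start in the RefSeq promoter sequences of the rat build GRCr8, and these stretches are shown because they are a sequence feature that the choice of genes did not use. The motif searched was GAAA, any 2 bases and GAAA again, or TTTC, any 2 bases and TTTC for the other strand, in the 250 bases before and 50 bases after each annotated start. All 6 genes were found in the table. B2m, Tap1, Tap2 and Psmb8 had 1 match each, and Cd74 and Psmb9 had none in this window, against 1312 of all 33469 promoters of that length, or 3.92%. The stretches below are of 260 bases, 5′ to 3′ on the strand of the gene, the last 10 bases lying from the start on, with the match in capitals. B2m lies on the plus strand at chr3:129549080-129549339, and the others lie on the minus strand: Tap2 at chr20:4652287-4652546, Psmb8 at chr20:4657022-4657281 and Tap1 at chr20:4668534-4668793.
B2m: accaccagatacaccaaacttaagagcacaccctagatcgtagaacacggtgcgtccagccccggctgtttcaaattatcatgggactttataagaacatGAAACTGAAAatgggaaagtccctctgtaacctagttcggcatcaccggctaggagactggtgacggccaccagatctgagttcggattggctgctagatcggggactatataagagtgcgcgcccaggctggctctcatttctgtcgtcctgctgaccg
Tap2: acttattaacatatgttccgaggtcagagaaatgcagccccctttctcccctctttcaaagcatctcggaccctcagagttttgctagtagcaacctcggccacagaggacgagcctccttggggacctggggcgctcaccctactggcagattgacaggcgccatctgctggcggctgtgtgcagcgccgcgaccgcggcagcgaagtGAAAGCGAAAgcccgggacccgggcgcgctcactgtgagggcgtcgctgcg
Psmb8: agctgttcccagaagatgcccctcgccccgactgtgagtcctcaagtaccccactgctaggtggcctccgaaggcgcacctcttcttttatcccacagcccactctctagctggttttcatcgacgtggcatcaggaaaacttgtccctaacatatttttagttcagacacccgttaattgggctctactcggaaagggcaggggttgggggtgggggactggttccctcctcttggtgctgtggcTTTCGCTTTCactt
Tap1: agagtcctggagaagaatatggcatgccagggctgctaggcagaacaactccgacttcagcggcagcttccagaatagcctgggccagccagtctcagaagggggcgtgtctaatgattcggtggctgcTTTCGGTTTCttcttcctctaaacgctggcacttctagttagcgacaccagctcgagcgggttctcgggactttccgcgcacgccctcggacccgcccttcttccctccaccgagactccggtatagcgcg
The match began 150 bases before the start in B2m, 121 before it in Tap1, 41 before it in Tap2 and 4 before it in Psmb8, where it spans the start. On chromosome 20 the order of the genes is RT1-Bb, RT1-DOb, Tap2, Psmb8, Tap1, Psmb9, RT1-DMb and RT1-DMa, so 4 of the 6 genes are neighbours inside the class II region of the rat MHC, with 16704 bases between the starts of Tap2 and Psmb9. Tap1 and Psmb9 face away from each other with 457 bases between their starts, and the match of Tap1 lies 336 bases from the start of Psmb9, outside the window taken for Psmb9. For other motifs, the 6 windows held TTCNNNGAA in 1 gene (Psmb8), against 8.87% of all promoters, and CCAAT or its reverse ATTGG in 4, against 37.5%. Among the other catalytic subunits, Psmb10, a further immunoproteasome subunit that is not among the genes chosen, had 2 matches to the GAAA repeat, while Psmb5, Psmb6 and Psmb7 had none. A match describes the letters and does not show that a factor binds there.

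Values are linear intensities, each from 1 array. The deposited arrays share a trimmed mean through scaling by the authors, and precision is limited by how few arrays there were. Changes are on the log2 scale after values under 36.4 were raised to that floor. No value of the 11 probe sets lay under it. Each is given with its standard error (SE) from limma. A probe set was called changed at an adjusted p under 0.05 in limma's two-sided test, with Benjamini-Hochberg adjustment across the 5285 tested probe sets. Intensities of different probe sets are not compared with each other. Correlation between arrays was 0.948 to 0.955 within groups and at most 0.941 across groups. Hepatocyte markers were strong on every array, with a summed intensity between 813655 and 1132210 over 46 probe sets of 18 genes. Here and below, a summed intensity adds all probe sets with the single symbol of a listed gene, tested or not.

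Of the 11 probe sets, 2 were called against sham, both lower at 24 h: the Psmb8 probe set and 1 of 2 for Tap1. Over all tested probe sets, 6.34% were called lower at 24 h. At 1, 4 and 8 h none of the 11 was called, against 1.44%, 4.35% and 3.5% of all tested probe sets called in either direction. At those times 5, 2 and 1 of the 11 had an unadjusted p under 0.05, against 12%, 17.4% and 18.6% of all tested. Between neighbouring times more was called: 1 probe set was lower at 4 h than at 1 h, 2 were higher at 8 h than at 4 h, and 3 were lower at 24 h than at 8 h. The shares of all tested probe sets called in those directions were 2.54%, 3.48% and 5.94%. The F test over the 4 burn times called 3 of the 11, which were Psmb8, 1 Tap1 and 1 Psmb9 probe set, against 15.3% of all tested. These 3 probe sets had group means that were lower at 4 h than at 1 h, higher again at 8 h and lowest at 24 h. Counting arrays alone, 7 of the 11 had both 24 h arrays lower than both in sham, where 29.2% of all tested probe sets did, and 9 of the 11 had both 4 h arrays below both 1 h arrays, where 27.9% did. The median change of the 11 against sham in order of time was 0.34, -0.29, 0.11 and -0.39, and that of all tested probe sets was 0.01, -0.04, -0.10 and -0.04. The comparisons with sham share the sham arrays and neighbouring steps share a burn group, so these courses are not independent of one another. Nor are the 11 probe sets, which stand for 6 genes, so that Cd74, Tap1 and Psmb9 enter these counts and medians more than once.

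**Figure D1:**
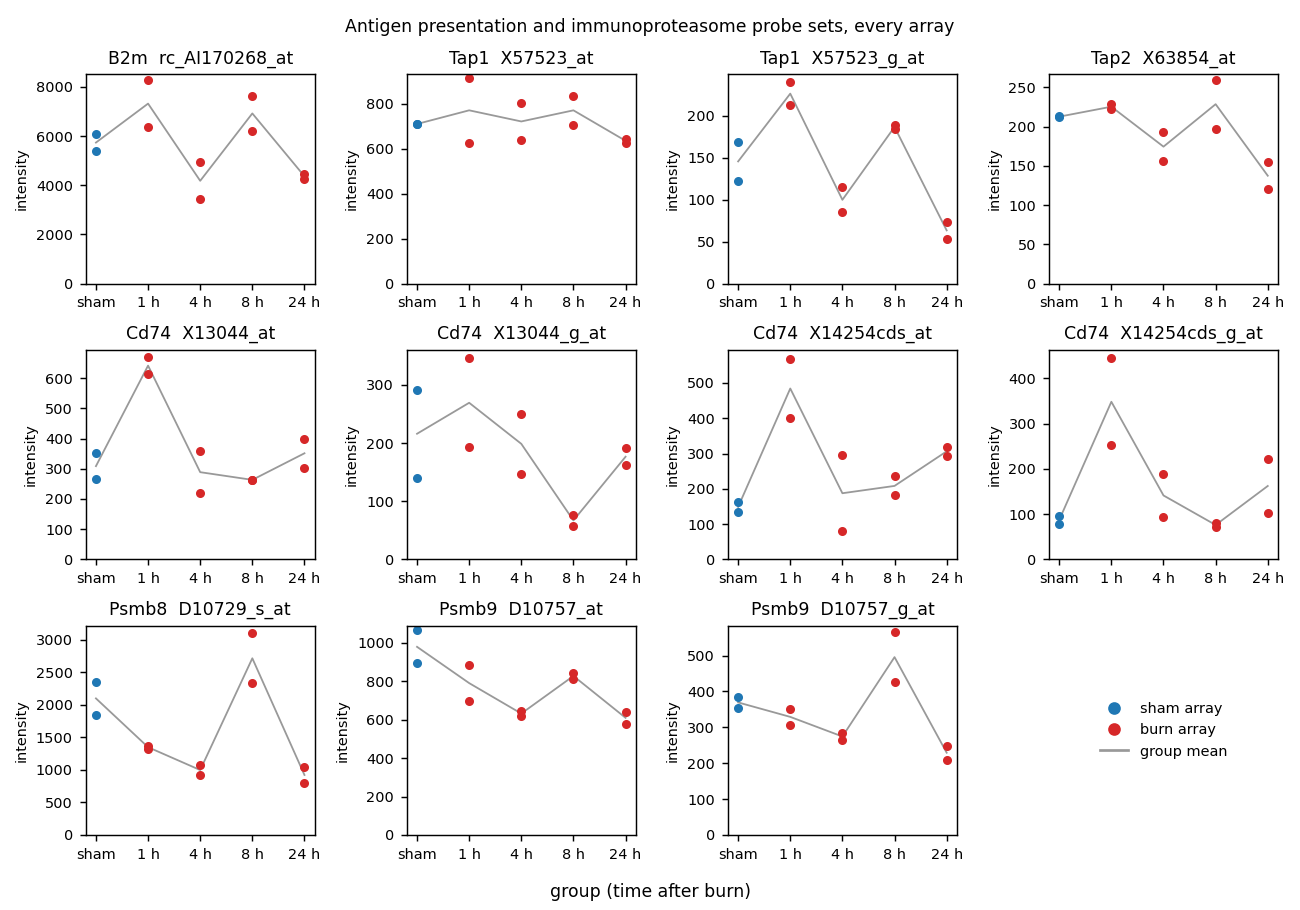
Intensity of each of the 11 probe sets (vertical axes, linear, starting at 0) on every array, by group (horizontal axes: sham, then 1, 4, 8 and 24 h after the burn). Points are single arrays, 2 per group, and lines join group means; Psmb8 lies at 793.6 and 1049.9 on the 24 h arrays, below both sham arrays, and the group means of the 4 Cd74 probe sets are highest at 1 h.

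Psmb8 encodes the immunoproteasome subunit that cuts after hydrophobic residues, and it was called both against sham and between burn times. Its probe set, D10729_s_at, read 1839.8 and 2356.0 in sham, 1323.1 and 1373.6 at 1 h, 920.5 and 1073.8 at 4 h, 2328.3 and 3099.6 at 8 h, and 793.6 and 1049.9 at 24 h. The arrays at 1, 4 and 24 h all lay below both sham arrays, while 1 of the 8 h arrays lay within the range of sham and the other above it. Psmb8 fell at 24 h by 1.19 on the log2 scale (SE 0.23, limma adjusted p = 0.0216), 2.28-fold lower than in sham. At 4 h the change was -1.07 (SE 0.23, adjusted p = 0.0528), which missed the threshold. It was 2.70-fold higher at 8 h than at 4 h (1.43, SE 0.23, adjusted p = 0.0126) and 2.94-fold lower at 24 h than at 8 h (-1.56, SE 0.23, adjusted p = 0.00736). The difference between 8 h and sham was 0.37 (adjusted p = 0.454) and that between 1 h and sham -0.63 (adjusted p = 0.338).

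Single arrays bore on these calls. The 24 h call was lost without the first or the second sham array (adjusted p = 0.0506 and 0.114) and without the first or the second 24 h array (0.112 and 0.0515), with changes between -1.39 and -0.99. The step to 8 h lost its call without the first 4 h array (0.0761) or the second 8 h array (0.0676), and the step to 24 h without the first 24 h array (0.0502). The 4 h difference was called with a floor at the 50th percentile (adjusted p = 0.0266) and with an intensity trend and robust variance (0.0076).

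Psmb9 encodes another immunoproteasome subunit and had 2 probe sets, which ranked the burn times in the same order but differed in the size of the changes. D10757_g_at read 354.9 and 383.8 in sham, 352.0 and 306.1 at 1 h, 265.8 and 283.0 at 4 h, 425.7 and 565.5 at 8 h, and 248.4 and 210.1 at 24 h. Its 8 h arrays lay above both sham arrays, and those of the other burn times lay below them. It was 1.79-fold higher at 8 h than at 4 h (0.84, SE 0.20, adjusted p = 0.0443) and 2.15-fold lower at 24 h than at 8 h (-1.10, SE 0.20, adjusted p = 0.0138). Its difference from sham at 24 h was -0.69 (SE 0.20, adjusted p = 0.0703) and was not called. The step to 8 h lost its call when any 1 of the 10 arrays was left out, with adjusted p up to 0.174, as did the F test, with adjusted p between 0.0515 and 0.132. The step to 24 h lost it without the second 8 h array (0.068) or the second 24 h array (0.0833).

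D10757_at, the other Psmb9 probe set, read 1064.9 and 893.2 in sham, 696.4 and 884.1 at 1 h, 646.7 and 617.0 at 4 h, 813.0 and 841.8 at 8 h, and 640.2 and 579.1 at 24 h. All 8 burn arrays lay below both sham arrays. No comparison was called: its differences from sham were -0.63 at 4 h (SE 0.18, adjusted p = 0.121) and -0.68 at 24 h (SE 0.18, adjusted p = 0.0592). At 8 h the 2 probe sets for Psmb9 lay on opposite sides of sham, at 0.41 for D10757_g_at and -0.24 for D10757_at, neither called.

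Of the subunits that Psmb8, Psmb9 and Psmb10 replace, Psmb5 was the one with probe sets of a single symbol here. D45247_g_at for Psmb5, the constitutive counterpart of Psmb8, read 3346.0 and 3352.8 in sham, 3123.6 and 3084.5 at 1 h, 3497.6 and 3140.6 at 4 h, 3327.7 and 3026.0 at 8 h, and 4948.7 and 4905.0 at 24 h. The 24 h arrays lay above all others. This probe set was higher at 24 h than at 8 h by 0.63 (adjusted p = 0.033), a call kept with 2 of the 10 arrays left out in turn and lost with each of the other 8: both sham, 1 h, 8 h and 24 h arrays. Against sham it was 0.56 (adjusted p = 0.0551), and its 2 other probe sets changed by 0.11 and 0.14 at 24 h, not called. Of the 35 constitutive proteasome genes listed, 23 were on the array and tested, each by its brightest probe set. None was called at 1, 4 or 8 h. At 24 h 1 rose, against 3.94% of all tested probe sets, and none fell: Psmc4, an ATPase of the regulatory particle, read 895.5 and 963.4 at 24 h against 509.9 and 537.0 in sham (0.83, adjusted p = 0.0145), a call lost without any of those 4 arrays (adjusted p up to 0.0844). The median change of the 23 genes at 24 h was 0.37, against -0.04 for all tested probe sets, and in 18 of them both 24 h arrays lay above both sham arrays, where 24.6% of all tested probe sets did. From 8 to 24 h 3 of the 23 rose, against 5.81% of all tested, and none fell, among them Psma6, a subunit of the outer ring (0.61, adjusted p = 0.0387). That Psma6 call was lost when any 1 of the 10 arrays was left out. Probe sets outside these counts varied. For Psmb4, rc_AI172162_at read 4303.7 and 4243.1 in sham, 2330.7 and 1968.3 at 8 h, and 2669.0 and 2495.4 at 24 h. L17127_g_at, also for Psmb4, went the other way, at 5164.8 and 3846.6 at 24 h against 2941.8 and 2596.5 in sham. For Psmd1, AJ006340_s_at read 56.4 and 71.7 at 1 h against 315.3 and 298.6 in sham. Their test results are not given here.

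Psme1 and Psme2 form the PA28 activator, which interferon also raises and which opens the proteasome. They were named after their values were seen. Psme1 was at -0.64 at 4 h (adjusted p = 0.115) and -0.42 at 24 h (adjusted p = 0.205) against sham. Psme2 read 345.0 and 499.2 at 24 h, against 985.6 and 835.4 in sham (-1.13, adjusted p = 0.101). Neither was called at any time in the probe set read, which for Psme1 was D45249_at. The other tested Psme1 probe set, D45249_g_at, read 3375.7 and 3176.0 in sham and 2847.7 and 2823.6 at 1 h. It read 2453.9 and 2279.3 at 4 h, 3646.3 and 3773.3 at 8 h, and 2246.1 and 2206.8 at 24 h. Its test results are not given here.

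**Figure D2:**
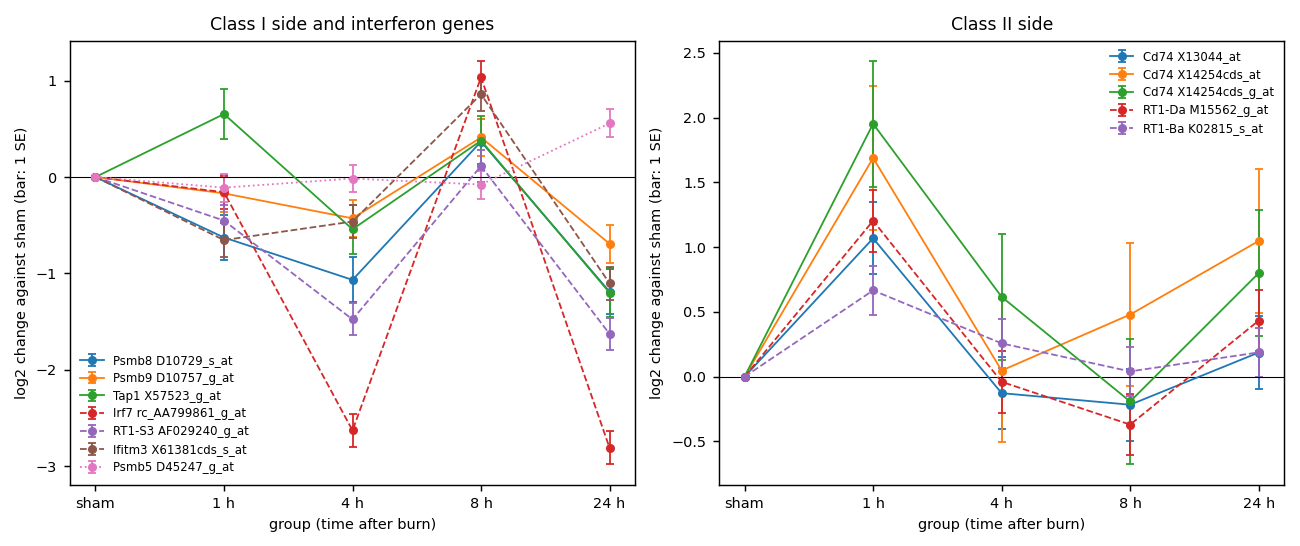
Log2 change against sham (vertical axes) by time after the burn (horizontal axes); points are limma estimates from 2 arrays per group, bars are 1 SE, solid lines are the genes chosen and dashed or dotted lines are other genes. On the left Psmb8, Psmb9 (D10757_g_at), Tap1 (X57523_g_at), Irf7 (rc_AA799861_g_at), RT1-S3 and Ifitm3 are low at 24 h and Psmb5 (D45247_g_at) is not. The other Tap1 probe set, at -0.16 at 24 h, and the other probe sets of Psmb9 and Irf7 are not drawn. On the right the drawn Cd74 probe sets, RT1-Da (M15562_g_at) and RT1-Ba are highest at 1 h. Cd74 X13044_g_at, whose 1 h arrays overlapped sham, is not drawn.

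The peptide transporter gave a mixed picture, because its probe sets disagreed. X57523_g_at for Tap1 read 169.4 and 122.2 in sham, 240.3 and 213.0 at 1 h, 115.1 and 84.9 at 4 h, 188.8 and 185.0 at 8 h, and 74.1 and 53.0 at 24 h. The 1 and 8 h arrays lay above both sham arrays and the 4 and 24 h arrays below them. It fell at 24 h by 1.20 on the log2 scale (SE 0.26, adjusted p = 0.0292), 2.30-fold lower than in sham. It was also lower at 4 h than at 1 h (-1.19, SE 0.26, adjusted p = 0.0459) and at 24 h than at 8 h (-1.58, SE 0.26, adjusted p = 0.0105). The F test called it (adjusted p = 0.0146).

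X57523_at, named for the same Tap1 sequence, read 708.4 and 711.8 in sham, 625.4 and 916.3 at 1 h, 639.4 and 803.3 at 4 h, 705.1 and 836.5 at 8 h, and 644.7 and 626.0 at 24 h. Its 1, 4 and 8 h arrays overlapped the sham arrays, and its 24 h arrays lay below them, with a difference of -0.16 (SE 0.23, adjusted p = 0.723). No comparison was called for it. The log2 intensities of the 2 Tap1 probe sets correlated at r = 0.38 over the 10 arrays. Which of them follows the Tap1 transcript was not tested.

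The calls of X57523_g_at also rested on dim values. Its 24 h intensities, 74.1 and 53.0, lay under the medians of their arrays, 114.5 and 123.5, and with a floor at the 50th percentile its 24 h change was -0.25 (adjusted p = 0.426). That call held without either 4 h array and was lost without either array of sham, 1 h, 8 h or 24 h (adjusted p up to 0.138, changes between -1.44 and -0.96). The step from 1 to 4 h lost its call without any 1 of the 10 arrays (adjusted p up to 0.213). The step from 8 to 24 h lost it without either 8 h array (0.0505 and 0.0524) or the second 24 h array (0.0632). The F test lost it without the first 1 h array (0.0514) or the second 24 h array (0.057).

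Tap2, like Tap1 in X57523_g_at, had its lowest group means at 4 and 24 h, within a narrow range. X63854_at read 212.2 and 213.3 in sham, 222.2 and 228.7 at 1 h, 156.5 and 192.6 at 4 h, 197.6 and 259.7 at 8 h, and 120.2 and 154.8 at 24 h. The 4 and 24 h arrays lay below both sham arrays, and the 8 h arrays overlapped them. Its 24 h difference from sham was -0.64 (SE 0.21, adjusted p = 0.11) and that from 8 h -0.73 (SE 0.21, adjusted p = 0.0701), neither called.

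B2m, the class I light chain, alternated without passing the test. Its probe set, rc_AI170268_at, read 6075.2 and 5402.7 in sham, 8272.1 and 6376.7 at 1 h, 4943.4 and 3423.1 at 4 h, 7629.1 and 6220.7 at 8 h, and 4471.7 and 4262.4 at 24 h. The arrays of 1 and 8 h lay above both sham arrays and those of 4 and 24 h below them, so sham stood between the high and the low times. The differences from sham were 0.34, -0.48, 0.27 and -0.39 in order of time, each with an SE of 0.24, with adjusted p between 0.367 and 0.637. The steps were -0.82 to 4 h (adjusted p = 0.113), 0.74 to 8 h (adjusted p = 0.111) and -0.66 to 24 h (adjusted p = 0.124). With an intensity trend and robust variance all 3 steps passed, with adjusted p of 0.0213, 0.0245 and 0.0364.

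Cd74, on the class II side, had its highest values at 1 h, and none of its comparisons was called. X13044_at read 351.1 and 266.4 in sham, 612.8 and 671.0 at 1 h, 359.0 and 218.5 at 4 h, 263.2 and 263.3 at 8 h, and 399.5 and 303.2 at 24 h. Both 1 h arrays stood above the other 8. The 1 h difference from sham was 1.07 (SE 0.28, adjusted p = 0.173), and 4 h lay below 1 h by -1.20 (SE 0.28, adjusted p = 0.06). That step passed without the first 4 h array (-1.55, adjusted p = 0.0428).

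X14254cds_g_at for Cd74 read 96.5 and 77.5 in sham, 443.8 and 252.3 at 1 h, 189.2 and 92.9 at 4 h, 71.8 and 79.9 at 8 h, and 221.8 and 102.2 at 24 h. Its 1 h arrays were again above the other 8, at 1.95 against sham (SE 0.49, adjusted p = 0.157). X14254cds_at read 135.0 and 162.2 in sham, 399.7 and 569.0 at 1 h, 79.1 and 295.6 at 4 h, 181.2 and 235.0 at 8 h, and 319.5 and 292.8 at 24 h. Here the 2 arrays of 4 h were far apart, and the 1 h difference of 1.69 (SE 0.55, adjusted p = 0.274) passed once either of them was left out (SE 0.24, adjusted p = 0.0407 each).

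In the last Cd74 probe set the arrays of the early groups were spread widely. X13044_g_at read 139.9 and 292.1 in sham, 345.7 and 192.9 at 1 h, 147.2 and 250.1 at 4 h, 75.7 and 58.0 at 8 h, and 190.7 and 162.3 at 24 h. Its 1 h arrays overlapped the sham arrays, and its 8 h arrays were the lowest, at -1.61 against sham (SE 0.45, adjusted p = 0.112). In 3 of the 4 Cd74 probe sets, then, both 1 h arrays lay above both sham arrays, where 21.7% of all tested probe sets did.

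**Figure D3:**
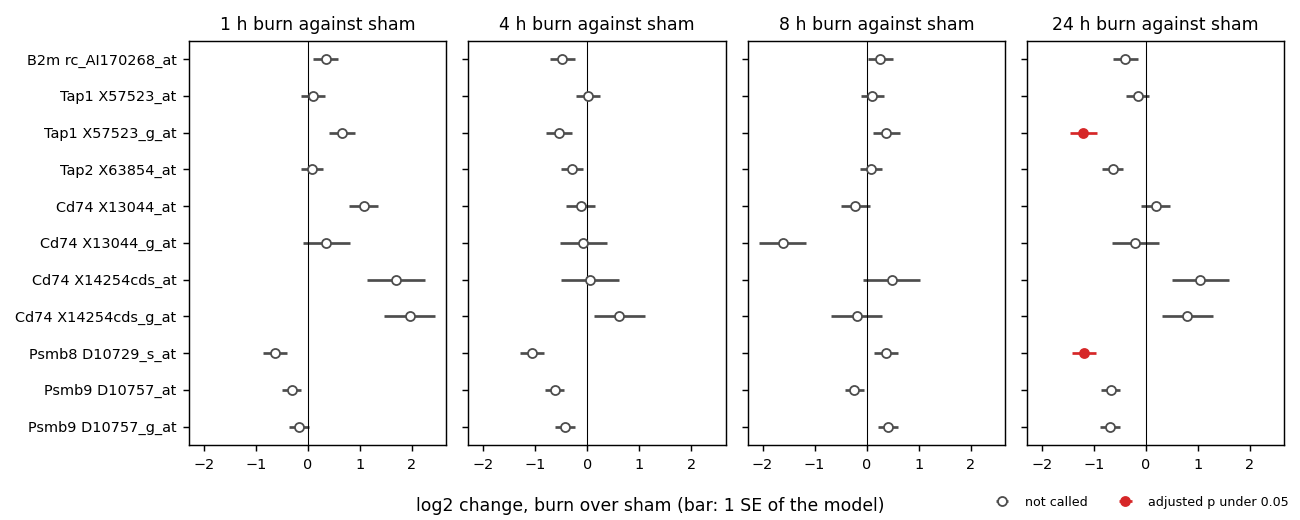
Log2 change of each of the 11 probe sets (rows) for burn over sham (horizontal axes) at 1, 4, 8 and 24 h; circles are limma estimates, bars 1 SE, n = 2 arrays per group. Filled circles, for Tap1 X57523_g_at and Psmb8 at 24 h, mark an adjusted p under 0.05.

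The rest of the class I pathway was read from a list of 48 genes for class I heavy chains and their loading, of which 18 were on the array and 16 were tested. At 1 h 1 rose and none fell, at 4 h 1 fell, at 8 h none was called, and at 24 h 1 rose and 1 fell. Of all tested probe sets, 0.795% rose at 1 h, 1.99% fell at 4 h, and 3.94% rose and 6.34% fell at 24 h, so the 24 h counts among 16 genes lie near the background. The median change of the 16 was 0.13, 0.10, 0.11 and 0.11 in order of time. The gene that fell was RT1-S3, a nonclassical class I heavy chain. Its probe set AF029240_g_at read 1385.8 and 1559.4 in sham, 1168.3 and 989.0 at 1 h, 545.7 and 511.6 at 4 h, 1569.2 and 1614.1 at 8 h, and 509.0 and 445.2 at 24 h. The 4 and 24 h arrays lay far below all others. RT1-S3 fell by 1.48 at 4 h (adjusted p = 0.00316) and by 1.63 at 24 h (adjusted p = 0.00191) against sham, and was higher at 8 h than at 4 h by 1.59 (adjusted p = 0.00225). These calls held with each array left out in turn. Its other probe sets gave -1.54 (adjusted p = 0.0742) and -1.33 (adjusted p = 0.0118) at 4 h and -1.77 (adjusted p = 0.0272) and -1.76 (adjusted p = 0.00279) at 24 h.

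Other heavy chains were called in other comparisons. RT1-CE16, a class I heavy chain of the RT1-C/E region, read 8813.6 and 9220.8 at 1 h against 3602.3 and 3880.3 in sham and rose by 1.27 (adjusted p = 0.0233), a call lost without either array of sham, 1 h or 4 h (adjusted p up to 0.155). RT1-CE12, of the same region, was not called against sham but was higher at 8 h than at 4 h (0.85, adjusted p = 0.0162) and lower at 24 h than at 8 h (-0.89, adjusted p = 0.0112). The first of these calls was lost without either 4 h array or the first 8 h array, and the second without the first 8 h array or either of the 24 h arrays (adjusted p up to 0.0791). The heavy chain genes are near-identical copies, so a probe set named for 1 of them may read others, and these values are uncertain as to the gene. Hspa5 (BiP), the main chaperone of the endoplasmic reticulum, rose at 24 h to 7477.4 and 6074.7, against 2639.0 and 2533.2 in sham (1.38, adjusted p = 0.0085). That call was lost without the second sham array (0.0522) or the first 24 h array (0.0534).

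On the class II side, 28 genes were listed, 22 were on the array and 18 were tested. Each gene was read by its brightest tested probe set. None was called at 1 or 4 h, 1 fell at 8 h, 2 fell at 24 h, and none was called higher against sham. Ctsl read 10078.0 and 8615.5 at 4 h against 5778.3 and 5797.8 in sham, without being called. Another Ctsl probe set, S85184_g_at, was not in the counts. It read 1664.6 and 1360.0 in sham, 4858.6 and 4580.3 at 4 h, 801.9 and 725.6 at 8 h, and 3470.6 and 3217.2 at 24 h. Over all tested probe sets 1.95% fell at 8 h and 6.34% at 24 h, and a count of 1 or 2 among 18 genes is too small to set apart from these shares. At 1 h 9 of the 18 had both burn arrays above both sham arrays, where 21.7% of all tested probe sets did, and their median change was 0.18, against 0.01 for all tested. RT1-Da, the alpha chain of a class II molecule, read 497.0 and 439.0 in sham, 1211.9 and 955.3 at 1 h, 548.6 and 376.5 at 4 h, 325.2 and 401.9 at 8 h, and 655.6 and 606.4 at 24 h in M15562_g_at. Like Cd74 it was highest at 1 h, at 1.20 against sham (adjusted p = 0.0729), and it was lower at 4 h than at 1 h (-1.24, adjusted p = 0.0296). That step held without the first 4 h array and without either 8 h array, and was lost without any of the other 7 (adjusted p up to 0.156). Its other probe set gave 0.35 at 1 h against sham and -0.79 for the step to 4 h (adjusted p = 0.0389), a call lost without any 1 of the 10 arrays. RT1-Ba, another class II alpha chain, named after its values were seen, was at 0.67 at 1 h (adjusted p = 0.209).

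The class II genes that fell were of other kinds. Ctsd, the lysosomal protease cathepsin D, read 1050.2 and 1062.8 at 24 h against 1993.5 and 2132.5 in sham (-0.96, adjusted p = 0.0127), a call lost without either sham array or either at 24 h (adjusted p up to 0.0694). Mif, a cytokine that binds Cd74 at the cell surface, was at -0.59 at 24 h (adjusted p = 0.0489), a call lost without any 1 of the 10 arrays. This Mif probe set read 5364.6 and 5079.9 at 24 h against 7818.8 and 7891.1 in sham. It was low at 1 h as well, at 4852.9 and 5100.3, without being called. The other Mif probe set, rc_AI009801_at, overlapped sham at 24 h, at 510.9 and 410.7 against 591.9 and 375.6. Cd86, a costimulatory molecule of antigen-presenting cells, had both 8 h arrays under the floor, at 31.1 and 35.5, against 96.0 and 127.6 in sham (adjusted p = 0.00897). That call was lost without the second 8 h array (0.0544) and with a floor at the 50th percentile (0.935).

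Interferon response and signalling genes were the third list, with 51 genes, 25 of them on the array and 17 tested. None was called at 1 h. At 4 h 1 fell, at 8 h 2 rose and 1 fell, and at 24 h 3 fell and none rose. The shares of all tested probe sets were 1.99% lower at 4 h, 1.55% higher and 1.95% lower at 8 h, and 6.34% lower at 24 h, and counts of 1 to 3 among 17 genes are too small to set apart from them. Their median changes were 0.05, -0.46, -0.05 and -0.48 in order of time, and at 24 h 13 of the 17 had both burn arrays below both sham arrays, where 29.2% of all tested probe sets did. Irf7, an interferon regulatory factor that is itself induced by interferon, alternated between low values at 4 and 24 h and high values at 8 h. Its probe set rc_AA799861_g_at read 341.9 and 352.6 in sham, 290.3 and 334.1 at 1 h, 58.9 and 53.6 at 4 h, 714.8 and 706.8 at 8 h, and 44.5 and 55.2 at 24 h. The 4 and 24 h arrays were low and close together, and the 8 h arrays were the highest.

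Irf7 fell by 2.63 at 4 h (SE 0.17, adjusted p = 0.000322) and by 2.81 at 24 h (SE 0.17, adjusted p = 0.000278), and these calls held with each array left out. It rose by 1.03 at 8 h (adjusted p = 0.027), a call that held without either 24 h array and was lost without either array of sham, 1 h, 4 h or 8 h (adjusted p up to 0.124). Its other probe set, rc_AA799861_at, was at -0.85 at 4 h (adjusted p = 0.408), 0.64 at 8 h (adjusted p = 0.506) and -2.09 at 24 h (adjusted p = 0.0304). That 24 h call was lost without 7 of the 10 arrays and held without the first 24 h array or either 8 h array.

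Ifitm3, an interferon-induced membrane protein, read 5475.1 and 4602.7 at 8 h and 1349.6 and 1231.7 at 24 h, against 2523.8 and 3038.5 in sham. It rose by 0.86 at 8 h (adjusted p = 0.0468), a call lost without any 1 of the 10 arrays, and fell by 1.10 at 24 h (adjusted p = 0.0101), a call lost without the second sham array (0.0606) or the second 24 h array (0.0615). Mx2, an interferon-induced GTPase, read 89.3 and 121.8 at 24 h against 467.2 and 341.7 in sham (-1.94, adjusted p = 0.0295), a call lost without either array of sham, 1 h or 24 h (adjusted p up to 0.147). Jak2, a kinase of the interferon gamma receptor, read 73.4 and 35.6 at 8 h against 202.4 and 202.9 in sham (-1.97, adjusted p = 0.0221). One of its 8 h arrays lay under the floor, and the call was lost without either sham array or either at 4 h (adjusted p up to 0.106). Irf1, which drives class I genes in response to interferon gamma, was named after its values were seen. It read 112.7 and 205.8 at 4 h against 318.2 and 313.9 in sham (-1.05, adjusted p = 0.0951). Nfkbia, the NF-kappaB inhibitor, was called by the F test (adjusted p = 0.0222) and at no single time against sham.

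Markers of some other cells also differed between the groups. Kupffer cell and macrophage markers, 10 genes on the array of which 8 were tested, had summed intensities of 8875 and 9273 in sham, 8876 and 9236 at 1 h, 7787 and 8107 at 4 h, 10236 and 9636 at 8 h, and 6741 and 6455 at 24 h. They were lowest at 24 h and highest at 8 h, as Psmb8 was. At 1 h these sums lay within the range of sham, while both Psmb8 arrays lay below both sham arrays. All 8 tested markers had both 24 h arrays lower than both in sham, where 29.2% of all tested probe sets did. Of the 8, 1 was called lower at 24 h, against 6.34% of all tested. This was Clec4f, a lectin of Kupffer cells, at -0.82 (adjusted p = 0.0145), a call lost without either sham or either 24 h array. Exocrine pancreas markers, 12 genes, summed to 9905 and 10698 in sham, 46175 and 47843 at 1 h, 2471 and 2234 at 4 h, 14211 and 13504 at 8 h, and 2192 and 2725 at 24 h. Of these 12, 10 rose at 1 h, 8 fell at 4 h, 3 rose at 8 h and 9 fell at 24 h. The shares of all tested probe sets called in those directions were 0.795%, 1.99%, 1.55% and 6.34%. The pancreas sums too were low at 4 and 24 h, and they were highest at 1 h, as Cd74 was. At 24 h the pancreas sums lay below sham, while the 24 h means of the Cd74 probe sets lay on both sides of it. These sums lay above both sham arrays at 1 and 8 h and below them at 4 and 24 h. B2m and Tap1 X57523_g_at did so too, and no other of the 11 probe sets did. Whether pancreas RNA bears on these courses was not tested.

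T and NK cell markers summed to between 1987 and 2932 over 18 genes, with none of the 8 tested called at any time. Dendritic cell markers, 4 genes, summed to between 169.4 and 316.0 on every array and none passed the filter on low values. The 2 B cell genes on the array summed to between 142.0 and 375.2. Neutrophil markers, 8 genes of which 3 were tested, summed to between 461.3 and 1179.6. Of these, 1 was called lower at 8 h, where 1.95% of all tested probe sets were. It was Cxcr2 (-1.98, adjusted p = 0.0271), a call lost without either array of sham, 1 h, 4 h or 8 h. Cxcr2 read 46.3 and 19.4 at 8 h, the latter under the floor, against 135.7 and 192.6 in sham. Its change ran from -2.43 to -0.41 over the alternative fits, so its size is uncertain. Endothelial and stellate cell markers, 12 genes, summed to between 4142 and 6252, with none of 8 called. Of 18 hepatocyte markers, 1 rose at 1 h and at 4 h, 2 rose and 1 fell at 8 h, and 2 rose at 24 h. Over all tested probe sets 0.795% rose at 1 h, and 4.35% were called in either direction at 4 h. At 8 h 1.55% rose and 1.95% fell, and at 24 h 3.94% rose. The part of any of these cells in the courses of the 6 genes was not tested.

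**Figure D4:**
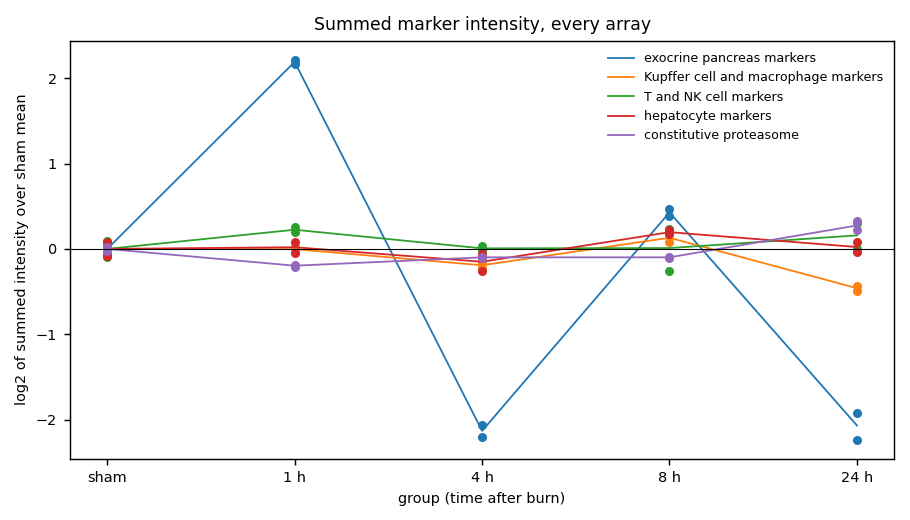
Summed intensity of marker lists and of the constitutive proteasome, as log2 over the sham mean (vertical axis), on every array by group (horizontal axis). Each sum takes all single-symbol probe sets of the listed genes, tested or not. Points are single arrays and lines join group means. Pancreas markers are high at 1 h and low at 4 and 24 h, and Kupffer cell markers are lowest at 24 h.

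Among the 6 genes themselves, likeness across arrays is a description, since all points share the 10 arrays and their 5 groups. Over the 10 arrays the log2 intensity of Psmb8 correlated with that of Psmb9 at r = 0.92 for D10757_g_at and 0.73 for D10757_at, and with Tap2 at 0.79. B2m correlated with Tap1 at 0.88 for X57523_g_at and 0.02 for X57523_at, and with Psmb8 at 0.55. The 4 Cd74 probe sets had r between -0.56 and -0.15 against Psmb8 and between -0.22 and 0.48 against B2m, and X13044_at had 0.43 against Tap1 X57523_g_at. For each gene, the 3 other genes most like it were then taken by Pearson's r over the 10 arrays, from its brightest probe set. The candidates were the tested probe sets with a single gene symbol, with those of the 6 genes left out. The Psmb8 probe set was most like Aldh3a2 (0.97), Ndufa6 (0.96) and Abcd3 (0.95). That of Psmb9 was most like Hs6st1 (0.91), Gpam (0.90) and Aqp9 (0.89), that of Tap2 like Acly (0.95), Clcn4 (0.93) and Chrna1 (0.92), and that of B2m like Gstt2 (0.95), Baat (0.93) and Slc17a1 (0.92). X57523_at for Tap1 was most like Sprr1a (0.88), Ucp3 (0.86) and Lrpap1 (0.85). X13044_at for Cd74 was most like Ppp1r13l (0.96), Ghrh (0.94) and RT1-Da (0.93), so a class II gene was among the 3 nearest to Cd74.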

How the data were processed

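The authors deposited linear intensity values for 8799 probe sets on 10 arrays, from 0.1 to 97822.9, and titles and descriptions gave the groups. Which software made them is not stated in the sources used here. After dropping 2% of values at each end, array means lay between 500.907 and 501.044, so the deposited intensity values share a trimmed mean, and no further scaling was done. Values under 36.4 (the median over arrays of the 25th percentile) were set to 36.4 before taking log2. A probe set was tested when it exceeded its array's median on 2 or more arrays, which 5285 did. Of the probe sets, 7018 carry a single gene symbol and 308 carry several, while 1473 are not listed in the probe annotation and stay unnamed.

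One limma 3.58.1 model (R 4.3.3, no covariate, 5 residual degrees of freedom) covered all 5 groups. It gave 4 comparisons with sham, 3 between neighbouring times and an F test, two-sided, with Benjamini-Hochberg adjustment over the 5285 probe sets. The model was tested on simulated data. Arrays of 2 groups were said not to overlap when both of 1 group lay beyond both of the other after the floor. For counts of calls, counts of arrays and median changes, the 4 pathway lists and 8 cell type lists took each gene by its tested probe set of highest mean. Summed intensities instead added every probe set with the single symbol of a listed gene, tested or not, so a gene could enter more than once. The 6 genes and all lists were chosen with earlier results of these data known. The rule named all 11 probe sets, the list genes called against sham or among the 4 with the smallest F test p of their list, the proteasome counterparts, and the 3 genes most like each. Psme1, Psme2, Irf1 and RT1-Ba were named after their values were seen. Promoter sequences, coordinates and gene order are from RefSeq, GRCr8.

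Replicate numbers follow the titles. Deviations of equally numbered arrays correlated at 0.0111 to 0.17, over 0.1 for 5 of 10 pairs of groups, so the numbers were not taken to pair the arrays. Replicate arrays shared only 8 to 24 identical values. Alternatives covered quantile normalization, floors at the 10th and 50th percentiles, no filter, a variance model with an intensity trend and robust fitting, the replicate number as a block, fits of only the groups compared, and leaving out single arrays, where a lone array is assumed to vary like the other groups.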

Additional observations from a re-analysis of the deposited data

Results flagged for a closer look

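Among the 11 probe sets, 6 differences between neighbouring burn times passed the test of the difference itself, which is also the difference between their effects against sham. For Psmb8 these were 1.43 for 8 h over 4 h (adjusted p = 0.0126) and -1.56 for 24 h over 8 h (adjusted p = 0.00736). For Psmb9 D10757_g_at they were 0.84 for 8 h over 4 h (adjusted p = 0.0443) and -1.10 for 24 h over 8 h (adjusted p = 0.0138). For Tap1 X57523_g_at they were -1.19 for 4 h over 1 h (adjusted p = 0.0459) and -1.58 for 24 h over 8 h (adjusted p = 0.0105).

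In 5 probe sets, among them Tap1 X57523_g_at and Psmb9 D10757_g_at named above, both arrays of a later burn time lay on the opposite side of sham from both arrays of 1 h. The differences of 8 and 24 h from 1 h were not tested. B2m, Tap1 X57523_g_at and Tap2 lay there at 24 h and also at 4 h. For 4 h against 1 h, limma gave them adjusted p of 0.113, 0.0459 and 0.405 in that order. B2m was at -0.39 at 24 h, against 0.34 at 1 h. Tap1 X57523_g_at was at -1.20 at 24 h, against 0.65 at 1 h, and Tap2 at -0.64 at 24 h, against 0.08 at 1 h. Cd74 X13044_at was at -0.22 at 8 h, against 1.07 at 1 h. Psmb9 D10757_g_at was at 0.41 at 8 h, against -0.17 at 1 h.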

How the results depend on the processing

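With 2 arrays per group, the counts of called probe sets among the 11 moved with the processing, while the direction of each of their 8 called changes stayed the same under every alternative run. Fitting only the groups compared left 0 called at 24 h against sham, 0 for each of the 3 neighbouring steps, and fewer called over all probe sets (104 for 24 h against sham, where the fit of all arrays called 543). That fit has fewer arrays. At 4 h against sham the count was 1, Psmb8, with a floor at the 50th percentile, with an intensity trend and robust variance, and with the replicate block. For 4 h against 1 h it was 0 with quantile normalization, a floor at the 10th percentile or no filter, 2 with a floor at the 50th percentile or the trend, and 3 with the replicate block, with B2m and Cd74 X13044_at added (adjusted p = 0.0487 and 0.0448). The F test called 5 with the trend. The causes were not tested. The labels do not say that the numbers pair the arrays. Equally numbered arrays deviated together weakly over all tested probe sets, with r from 0.0111 to 0.17 over the 10 pairs of groups and over 0.1 in 5, so the block was not used as the basis of any call. It gave 583 called probe sets at 24 h against sham in place of 543. With each array left out in turn, the members called ran from 0 to 1 at 1 h, 0 to 0 at 4 h, 0 to 0 at 8 h and 0 to 2 at 24 h against sham, from 0 to 1 for 4 h against 1 h, 0 to 1 for 8 h against 4 h, 1 to 3 for 24 h against 8 h, and 1 to 4 in the F test. Over all probe sets these ranges were 29 to 75, 125 to 222, 43 to 107, 216 to 482, 113 to 236, 182 to 383, 254 to 572 and 446 to 642, against 76, 230, 185, 543, 264, 438, 621 and 811 with all arrays. The trend called 140, 380, 377, 830, 428, 683 and 866 in the 7 comparisons and 1261 in the F test, the floor at the 50th percentile called 133, 374 and 312 at 1, 4 and 8 h and 401 for 4 h against 1 h, no filter called 280 at 8 h, and the fit of only the groups compared called 0 at 1 h, 69 at 4 h, 0 at 8 h, and 89, 70 and 167 for the steps. Of the 69 member changes not called, 15 changed sign in 23 of 1173 alternative fits, none of them over 0.43 in size. Quantile normalization moved the median of all tested probe sets by less than 0.1. Low intensities limit Tap1 X57523_g_at and Cd74 X14254cds_g_at, which lay above the median of their array on 6 and 4 of the 10 arrays.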
